A study of Mus musculus with 32 samples.

Results

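Conjugation and aldehyde detoxification enzymes were taken as every gene whose symbol in the array annotation begins with Gsta, Gstm, Gstp, Gstt, Gstk, Gsto or Gstz, with Ugt1 or Ugt2, with Sult or with Aldh, followed by a number. This gave 36 genes of the 8251 that the array measured with a probe set of a single gene: 15 glutathione S-transferases, 2 UDP-glucuronosyltransferases, 9 sulfotransferases and 10 aldehyde dehydrogenases. They were measured by 52 probe sets, and the probe set that averaged highest across the 32 arrays stood for each gene. Values below are log2 intensities unless stated otherwise, and changes are differences between group means on that scale.

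The enzymes were followed in wild-type FVB mice, an inbred strain, with one array per tissue sample. Liver at lactation day 10 was hybridised from dams on 8% dietary fat (3 arrays). Mammary gland was hybridised from dams on 8%, 16% and 40% fat (3 arrays each), at the same day for 8% and 40%; per the design text, dams on 40% and 8% had eaten chow until lactation day 5 and then took that share of their energy from soy oil until day 10. A chow-fed course of the mammary gland covered pregnancy days 12 and 17, then lactation days 1, 2 and 9 (4 arrays each). The mammary arrays titled 8% and 16% carry descriptions that read 40%, so the groups follow the titles, and neither the day nor the feeding scheme of the 16% arrays is stated. Each array held RNA of an individual tissue sample, p-values measure the spread between the arrays of a group, and the labels do not say whether a liver and a gland came from the same dam. Whole gland and whole liver were used, so less RNA per cell and fewer cells of a type cannot be told apart in any value below.

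Conjugation makes fat-soluble compounds easier to excrete by joining them to a polar group. Glutathione S-transferases attach the tripeptide glutathione to electrophiles, UDP-glucuronosyltransferases attach glucuronic acid, and sulfotransferases attach sulfate. Aldehyde dehydrogenases oxidise reactive aldehydes to acids, and some of them serve ordinary metabolism, such as the making of retinoic acid, carnitine or proline. The liver is the main organ for these reactions, and the lactating gland is a tissue whose product passes to the young.

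Median intensity per array ran from 16.1 to 21.5, and the number of arrays per group limits the precision of all values. A level of 4.22, the median of all values, served as the filter line: a probe set entered a test if at least 1 group mean of the fit reached that line, and a group mean under it gives only a bound. Of the hepatocyte markers, 13 of 13 were at or above the line in liver and 2 of 13 in the mammary gland on 8% fat. Of the luminal epithelium markers, 3 of 11 were at or above the line in liver and 10 of 11 in that gland. Low values drifted across the arrays, which touches several results below: for the 5236 probe sets under the line at every stage, the median was 2.76 at pregnancy day 12, 2.90 at day 17, 2.97 at lactation day 1, 3.09 at day 2 and 3.21 at day 9. Nothing in the labels gives a hybridisation or scan batch.

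To show the regulatory sequence beside the values, promoters are given for the gene of each family with the largest excess in liver among those with a single start in the RefSeq promoter table, and for Aldh18a1, the gene with the largest excess in the mammary gland. They cover the 250 bases before the start on build GRCm38.p6: Gsta3 at chr1:21240335-21240584 on the plus strand, Ugt2b5 at chr5:87140341-87140590 on the minus strand, Sult3a1 at chr10:33857472-33857721 on the plus strand, Aldh1a7 at chr19:20727557-20727806 on the minus strand and Aldh18a1 at chr19:40588464-40588713 on the minus strand. The start is the one in that promoter table. For Sult3a1 it lies inside the annotated gene, chr10:33851020-33879475, so its window does not precede the gene's 5′ end. The Gsta3 window runs a few bases past the annotated gene start at 21240565. Each sequence reads 5′ to 3′ along the gene, and capitals mark matches to 5 motifs searched on both strands.

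Gsta3: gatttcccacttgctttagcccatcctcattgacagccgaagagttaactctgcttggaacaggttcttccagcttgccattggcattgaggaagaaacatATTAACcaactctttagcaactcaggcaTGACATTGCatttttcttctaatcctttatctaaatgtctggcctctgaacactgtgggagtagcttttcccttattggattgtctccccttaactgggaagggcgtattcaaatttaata

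Ugt2b5: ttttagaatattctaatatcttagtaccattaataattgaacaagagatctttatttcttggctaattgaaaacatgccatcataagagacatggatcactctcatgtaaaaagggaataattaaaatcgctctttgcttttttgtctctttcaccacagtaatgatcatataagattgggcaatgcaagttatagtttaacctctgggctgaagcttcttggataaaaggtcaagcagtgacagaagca

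Sult3a1: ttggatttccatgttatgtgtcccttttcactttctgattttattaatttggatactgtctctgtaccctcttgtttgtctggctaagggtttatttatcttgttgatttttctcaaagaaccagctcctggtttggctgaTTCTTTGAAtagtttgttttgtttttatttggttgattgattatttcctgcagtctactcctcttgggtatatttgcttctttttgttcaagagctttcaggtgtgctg

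Aldh1a7: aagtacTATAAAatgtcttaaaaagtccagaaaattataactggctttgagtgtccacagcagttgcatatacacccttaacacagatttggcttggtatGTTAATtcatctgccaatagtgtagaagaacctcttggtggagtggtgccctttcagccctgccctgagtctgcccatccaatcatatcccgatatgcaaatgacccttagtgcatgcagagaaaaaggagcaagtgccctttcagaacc

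Aldh18a1: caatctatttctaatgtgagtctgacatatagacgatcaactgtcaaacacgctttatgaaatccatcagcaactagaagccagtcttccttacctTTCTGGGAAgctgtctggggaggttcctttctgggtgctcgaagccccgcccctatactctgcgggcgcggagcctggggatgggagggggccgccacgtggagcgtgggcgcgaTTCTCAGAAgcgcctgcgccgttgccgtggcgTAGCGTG

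The motifs were the antioxidant response element, TGACNNNGC, the xenobiotic response element, TNGCGTG, the HNF1 half-site, GTTAAT, the STAT5 site, TTCNNNGAA, and the box named for its letters, TATAAA. Gsta3 held TGACATTGC, the antioxidant element, at 121 to 113 bases before the start, and ATTAAC, the HNF1 half-site on the other strand, at 149 to 144. Ugt2b5 held no match, which says only that these letters are not in this window. Sult3a1 held a single STAT5 match, TTCTTTGAA, and Aldh1a7 held GTTAAT and TATAAA. Aldh18a1 held 2 STAT5 matches, TTCTGGGAA and TTCTCAGAA, and ended on TAGCGTG, the xenobiotic element. No printed match overlapped another. RefSeq windows were found for 28 of the 36 genes, 35 windows in all. The antioxidant element was in 4 of these 35 and in 10.2% of all 32851 windows, the xenobiotic element in 5 and in 4.1%, the HNF1 half-site in 4 and in 6.43%, the STAT5 site in 5 and in 7.02%, and TATAAA in 4 and in 12.4%. These matches describe letters and were not tested for binding.

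Across the 9 groups, 15 of the 36 genes had a group mean at or above the line everywhere: Aldh18a1, Aldh2, Aldh3a2, Aldh7a1, Aldh9a1, Gsta4, Gstk1, Gstm1, Gstm3, Gstm5, Gsto1, Gstp1, Gstt2, Gstz1 and Sult1a1. Another 7 reached it in liver and in no mammary group, namely Aldh1a7, Sult1b1, Sult2a2, Sult3a1, Sult5a1, Ugt2b34 and Ugt2b5. Aldh1a1, Gsta3, Gstm2, Gstm6, Gstt1 and Sult1d1 reached it in liver and in some mammary groups. Aldh1a3 and Sult1c1 reached it in some mammary groups and not in liver, with highest group means of 4.34 and 4.61, close to the line. Aldh1a2, Aldh3a1, Gsta1, Gsta2, Sult2b1 and Sult4a1 reached it nowhere. Both glucuronosyltransferases were thus under the line in every mammary group.

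The comparison of liver with mammary gland on 8% fat asked how the conjugation and aldehyde enzymes differ between the tissues on one diet. Most were far higher in liver: 25 of the 29 tested genes were called higher and 4 lower by limma at a Benjamini-Hochberg adjusted p under 0.05, where 80% of all 6893 tested probe sets were called, 39.7% higher and 40.3% lower. The median change of the 29 was 3.02, beside a median of −0.01 over all tested probe sets. Of the 29, 9 reached the line through liver alone and 1, Sult1c1, through the gland alone, so that these had to differ. Among the 19 at or above the line in both tissues, 16 were higher in liver and 3 lower, where 39.4% and 35.3% of all such probe sets were. Equal medians of the ribosomal protein genes across arrays gave 26 higher and 1 lower, with the median of all probe sets moved up by 1.11.

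Sulfotransferases held the largest differences. Sult3a1, which sulfates amines, read 12.81, 12.85 and 12.96 in liver, against 3.39, 3.34 and 3.31 in mammary gland, a liver level at least 402-fold higher (adjusted p = 7.6e-11). Sult2a2, which sulfates hydroxysteroids, read 12.19, 11.99 and 11.98 in liver, against 2.96, 2.91 and 2.90 in mammary gland, at least 228-fold higher (adjusted p = 1.09e-10). For both genes all gland arrays lay under the line, so only the lower bound of the fold was measured. Sult1a1, which sulfates phenols and estrogens, was measured in both tissues, at 9.79, 9.70 and 9.70 in liver, against 5.04, 5.31 and 5.17 in mammary gland, a change of 4.55 ± 0.10 (SE). The mean of all its probe sets changed by 2.11. Sult1d1, which sulfates catecholamines, read 7.95, 8.08 and 8.41 in liver, against 4.45, 4.82 and 4.73 in mammary gland, 11.2-fold higher. Sult1b1, active on thyroid hormones, and Sult5a1 read 6.39 ± 0.27 and 5.42 ± 0.32 in liver, against 3.67 ± 0.13 and 3.15 ± 0.19 in mammary gland (SD, n = 3), at least 4.51-fold and 2.30-fold higher. Sult1c1 went the other way, with 4.09, 3.73 and 3.81 in liver, against 4.52, 4.31 and 4.27 in mammary gland, all near the line. Its change of −0.49 lay inside the span of the 5529 untested probe sets under the line, whose 10th and 90th percentiles were −0.50 and −0.02, and it was 0.60 with equal ribosomal medians.

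Both glucuronosyltransferases were liver genes on this array. Ugt2b5 read 11.62, 11.46 and 11.44 in liver, against 3.41, 3.35 and 3.34 in mammary gland, at least 156-fold higher (adjusted p = 1.44e-10). Ugt2b34 read 9.93, 10.02 and 10.07 in liver, against 3.18, 3.19 and 3.11 in mammary gland, at least 55.1-fold higher (adjusted p = 2.48e-10). Ugt2b genes are close copies of one another, as are several Gsta, Gstm and Sult2a genes and the pair Aldh1a1 and Aldh1a7, so a probe set may also read a relative of the gene it is named for.

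Of the 13 tested glutathione S-transferases, 11 were higher in liver and 2 lower. Gsta3, an alpha-class enzyme, read 10.30, 10.26 and 10.11 in liver, against 4.21, 4.64 and 3.94 in mammary gland, a change of 5.96 ± 0.17 (SE). Gstt1, a theta-class enzyme, read 9.39, 9.59 and 9.67 in liver, against 4.42, 4.65 and 4.39 in mammary gland. Gstz1, the maleylacetoacetate isomerase of tyrosine breakdown, read 11.64, 11.53 and 11.56 in liver, against 7.72, 7.62 and 6.53 in mammary gland. These were 62.2-fold, 33.5-fold and 19.5-fold higher in liver, with no overlap between the tissues, as in 29 of the 29 tested enzymes and 83.1% of all probe sets. Gstk1, found in mitochondria and peroxisomes, was 8.11-fold higher and Gstm1 8.06-fold, while Gstt2 was 5.15-fold, Gsta4, active on the lipid peroxidation product 4-hydroxynonenal, 4.19-fold and Gsto1, a thiol transferase, 3.11-fold higher. The mean of all Gstm1 probe sets changed by 1.41, against 3.01 on the brightest. Gstm6 was at least 8.58-fold and Gstm2 at least 2.25-fold higher.

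Gstp1, the pi-class enzyme, differed least of the genes higher in liver. It read 11.59, 11.17 and 11.28 in liver, against 10.89, 11.07 and 10.86 in mammary gland, a change of 0.41 ± 0.13 (SE, adjusted p = 0.0202). The change was −0.01 after quantile normalization, which moved the median of all probe sets by −0.22, and the call was lost without gland replicate 1 (adjusted p = 0.0586) or 3 (0.0598). Gstm5 was lower in liver, at 6.69, 6.70 and 6.97, against 8.00, 7.68 and 7.68 in mammary gland, a change of −1.0 ± 0.13 (SE). Gstm3 was called lower on its brightest probe set, at 6.51 ± 0.05 in liver and 7.19 ± 0.49 in mammary gland (SD, n = 3), but another probe set of Gstm3 was 3.83 higher in liver, so its direction was not settled. The call was also lost without any 1 of the 3 liver arrays (adjusted p = 0.0678, 0.0606 and 0.0596). With equal ribosomal medians the changes of Gstm5 and Gstm3 were 0.09 and 0.41.

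All but 1 of the 7 tested aldehyde dehydrogenases were higher in liver. Aldh1a1, which turns retinaldehyde into retinoic acid, read 10.79, 10.70 and 10.69 in liver, against 4.02, 4.97 and 4.02 in mammary gland, 84.0-fold higher. That was its brightest probe set, with a change of 6.39, while the mean of all its probe sets changed by 3.11. Its close relative Aldh1a7 read 8.87, 8.53 and 9.37 in liver, against 2.63, 2.59 and 2.69 in mammary gland, at least 26.0-fold higher. Aldh3a2, the fatty aldehyde dehydrogenase, read 9.62, 9.58 and 9.38 in liver, against 4.96, 5.17 and 5.04 in mammary gland, 22.2-fold higher. The groups did not overlap for any of these genes. Aldh9a1, which serves carnitine synthesis, was 11.2-fold higher, Aldh2, the mitochondrial enzyme for acetaldehyde, 6.28-fold, and Aldh7a1, of lysine breakdown, 5.05-fold. The mean of all Aldh7a1 probe sets changed by 1.36, against 2.34 on the brightest.

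Aldh18a1 stood apart from its family. It encodes the enzyme that makes the precursor of proline from glutamate, a step of synthesis and not of detoxification. It read 4.34, 4.03 and 4.30 in liver, against 7.91, 8.09 and 8.32 in mammary gland, a change of −3.88 ± 0.14 (SE, adjusted p = 9.91e-08), 14.7-fold lower. The mean of all its probe sets changed by −2.08. The liver values lay around the line, and the gland values were well over it.

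**Figure D1:**
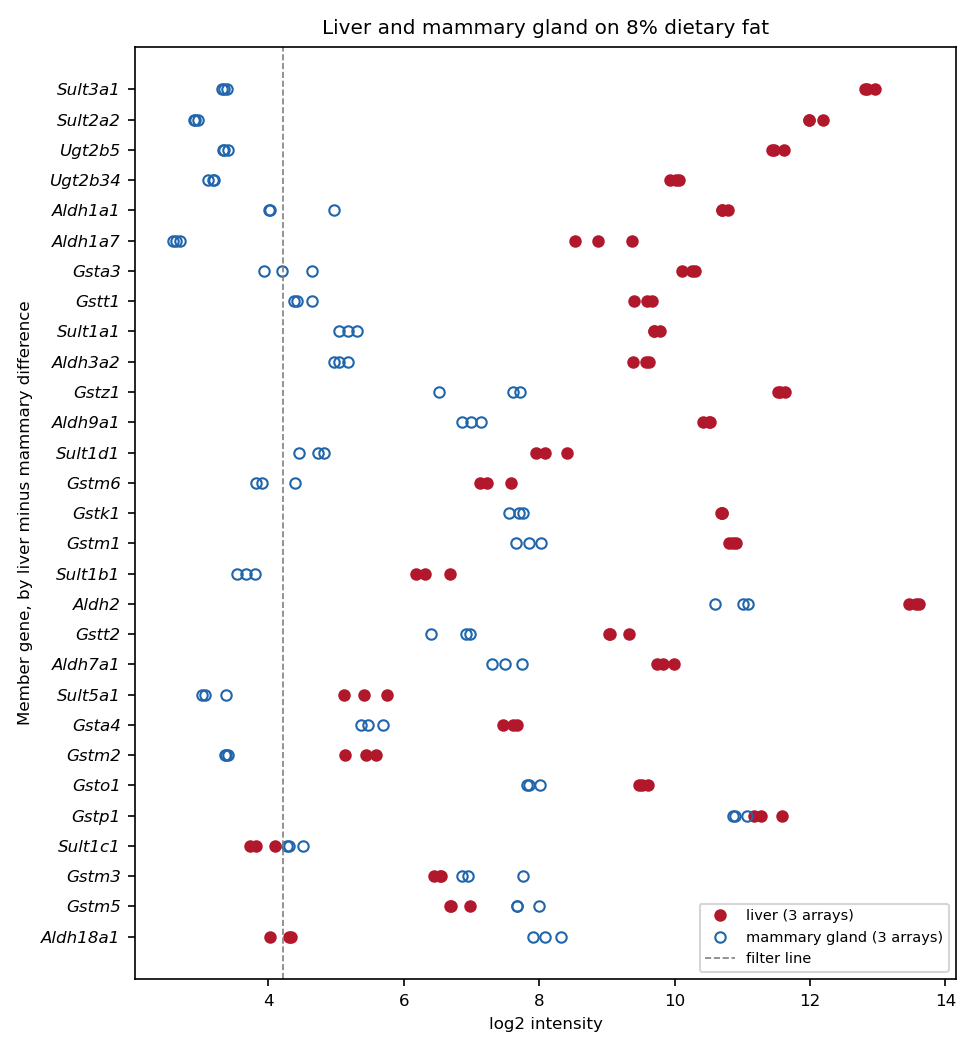
Log2 intensity of the 29 tested enzymes in liver (filled circles, 3 arrays) and mammary gland (open circles, 3 arrays) on 8% dietary fat, ordered by liver minus mammary gland; the dashed line is the filter line at 4.22. Liver values lie to the right for 25 genes, and Sult1c1, Gstm3, Gstm5 and Aldh18a1 at the bottom lie to the left.

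The genes around these enzymes were described from 6 lists. Their counts stand beside 80% of all tested probe sets called between liver and gland, 39.7% higher and 40.3% lower. Of 12 tested genes for other conjugation and hydrolysis, 12 were higher in liver, among them Inmt, an indole methyltransferase, at least 63.5-fold, and Ephx2, the soluble epoxide hydrolase, 24.5-fold. Of 13 alcohol dehydrogenases and aldehyde sources, 11 were higher and 1 lower, with Adh1, the main alcohol dehydrogenase, at least 230-fold and Rdh7, a retinol dehydrogenase, 191-fold higher. Of 15 genes of glutathione supply and peroxide removal, 9 were higher and 4 lower. Glo1, which clears methylglyoxal, was 12.2-fold and Gclc, the first enzyme of glutathione synthesis, at least 10.5-fold higher, whereas Gpx3, the secreted glutathione peroxidase, was lower in liver, at 4.89 ± 0.19, against 7.81 ± 0.34 in mammary gland (SD, n = 3).

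The suppliers of the sulfate donor went in opposite directions. Papss2, which makes the donor, read 10.43 ± 0.14 in liver and 4.70 ± 0.16 in mammary gland, while Papss1, the other enzyme for that step, read 4.67 ± 0.05 in liver and 6.81 ± 0.12 in mammary gland (SD, n = 3). In that list of 8 genes, 5 were higher and 2 lower, and Ugdh, which makes UDP-glucuronic acid, was 7.86-fold higher. Of 14 regulators, 10 were higher and 2 lower, led by Ppara, at least 10.6-fold, and Hnf4a, at least 10.0-fold, whereas Nfe2l2, which acts on antioxidant elements, was not called. Of 6 exporters, 4 were higher and 2 lower. Abcb4, which flips phospholipids into bile, was at least 18.6-fold higher in liver, and Abcg2, the exporter that carries drugs and riboflavin into milk, was lower in liver at 7.18 ± 0.08, against 11.88 ± 0.23 in mammary gland.

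The comparison of lactation day 2 with pregnancy day 17 asked how the gland changes as copious milk secretion begins. Among the 22 enzymes tested over the stages, 4 were higher and 8 lower at lactation day 2, so that 12 were called beside 49.9% of all 7186 tested probe sets, 25.4% higher and 24.5% lower. Aldh1a1 of the retinoid pathway, Aldh3a2 of lipid metabolism and Gstz1 of tyrosine breakdown fell, and Aldh18a1 of proline synthesis rose. Their median change was −0.21, beside 0.04 over all probe sets, and 10 did not overlap between the stages, beside 50.3% of all. Of the 15 genes at or above the line at both stages, 2 were higher and 6 lower, where 20.9% and 27% of such probe sets were. With equal ribosomal medians the split was 10 higher and 3 lower, as the median of all probe sets moved up by 0.53. Of the 12 called genes, 11 kept their sign and 7 kept their call. The calls of Aldh9a1 (limma adjusted p = 0.535), Gstm1 (0.897), Gstm2 (0.418), Gstm5 (0.475) and Sult1a1 (0.132) were lost. That scaling moves all genes of an array alike, so changes taken relative to the shift only repeat the main values and test nothing.

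Aldh1a1 fell to 3.58, 3.50, 3.18 and 3.46 at lactation day 2, against 5.12, 5.49, 5.19 and 5.43 at pregnancy day 17. The day 2 values lay under the line, so the fall was at least 2.12-fold (change −1.88 ± 0.35 (SE), adjusted p = 0.000297). Gstz1 read 7.36, 7.78, 7.37 and 7.42 at lactation day 2, against 8.86, 8.62, 8.87 and 8.73 at pregnancy day 17, 2.44-fold lower (adjusted p = 6.62e-05). Aldh3a2 read 4.79, 4.81, 5.11 and 4.86 at lactation day 2, against 5.72, 5.65, 5.51 and 5.81 at pregnancy day 17, 1.72-fold lower (adjusted p = 5.58e-06). In each of these genes the highest lactation array lay under the lowest pregnancy array.

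Sult1a1 fell by 0.77 on its brightest probe set, to 5.25 ± 0.02 at lactation day 2, against 6.02 ± 0.24 at pregnancy day 17 (SD, n = 4). The mean of all its probe sets changed by −0.26. Among mu-class transferases, Gstm5 fell by 0.66 and Gstm1 by 0.49, and other probe sets of Gstm5 were not called (−0.15 and 0.16). Gstm1 changed by 0.02 with equal ribosomal medians. Gstm2 read 3.48, 3.53, 3.53 and 3.53 at lactation day 2, against 4.88, 4.58, 3.35 and 4.14 at pregnancy day 17, so the groups overlapped, the measured bound was a fall of at least 1.01-fold, and the call was lost without pregnancy replicate 1 (adjusted p = 0.0526). Aldh9a1 fell by 0.67, a call lost without lactation replicate 3 (adjusted p = 0.0558) or pregnancy replicate 3 (0.0703).

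Aldh18a1 rose to 8.65, 8.34, 8.26 and 8.55 at lactation day 2, against 7.11, 7.05, 6.78 and 6.79 at pregnancy day 17, 2.86-fold higher (change 1.51 ± 0.17 (SE), adjusted p = 1.02e-06). All 4 lactation arrays lay above all pregnancy arrays. That was its brightest probe set, and the mean of all its probe sets changed by 0.86. Aldh2 rose by 0.43 on its brightest probe set, and 2 other probe sets of the gene were not called (−0.05 and −0.01). Sult1d1 and Sult1c1 were called 0.41 and 0.26 higher from levels around the line. The untested probe sets under the line changed by a median of 0.19 in the same comparison, with a 90th percentile of 0.33. Of all probe sets that reached the line at lactation day 2 and not at pregnancy day 17, as Sult1d1 and Sult1c1 did, 73.8% were called higher. Both calls were lost after quantile normalization (adjusted p = 0.111 and 0.268), that of Sult1d1 also without lactation replicate 4 (0.0525) or pregnancy replicate 2 (0.054) and that of Sult1c1 without lactation replicate 3 (0.0517) or 4 (0.062).

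Another 10 enzymes were tested and not called, and 14 were not tested because they lay under the line at every stage. Gstp1, at 10.05 ± 0.11 at lactation day 2 and 10.02 ± 0.11 at pregnancy day 17 (SD, n = 4), had a difference of 0.03 with a 95% interval that ran between −0.19 and 0.26. Gsta4 differed by −0.27 (adjusted p = 0.116), Gstm3 by 0.23 (adjusted p = 0.21; another of its probe sets was called at 0.20, adjusted p = 0.0413), Gstk1 by 0.21 and Gsto1 by 0.17. Aldh7a1 differed by −0.20 on its brightest probe set (adjusted p = 0.546), while a second, dimmer probe set for it fell by 0.99 (limma adjusted p = 0.0243).

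**Figure D2:**
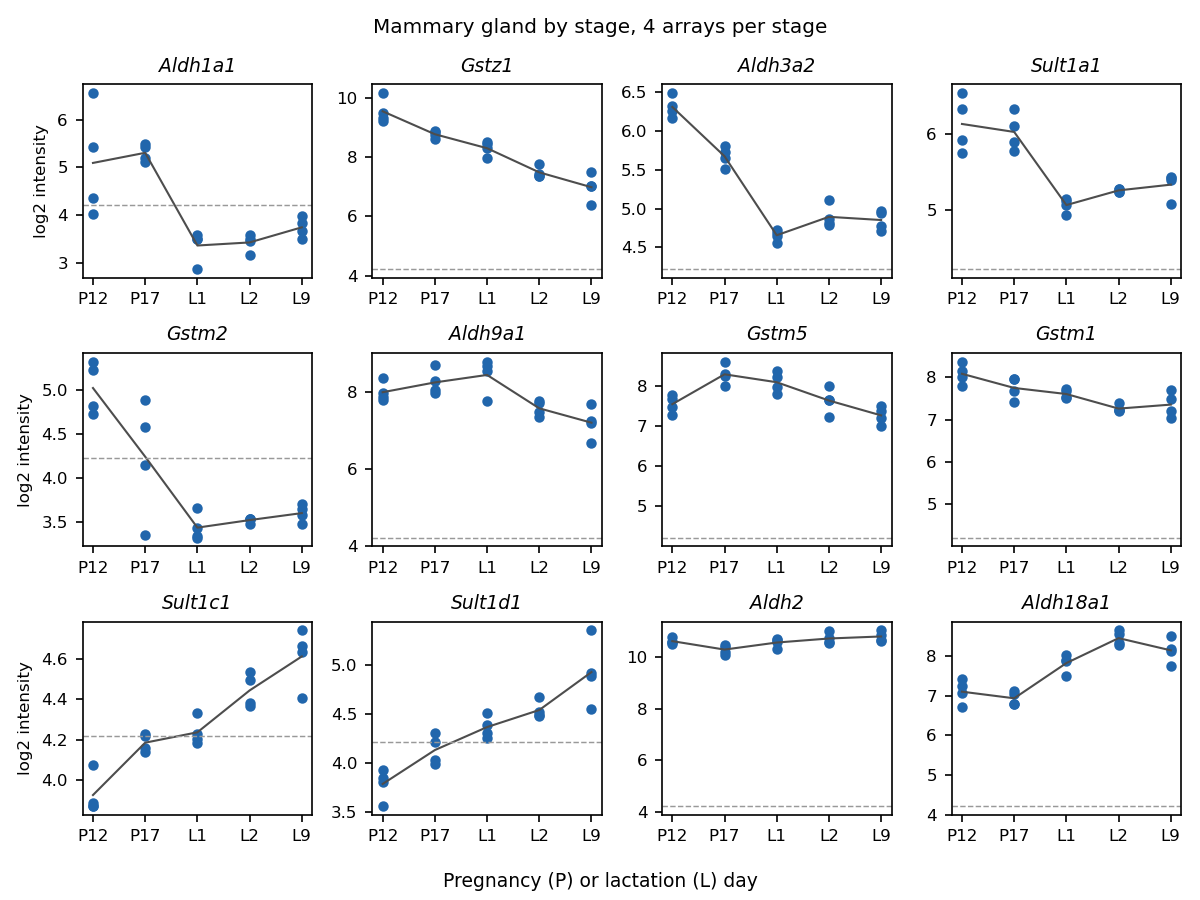
Log2 intensity of the 12 enzymes called between lactation day 2 and pregnancy day 17, at pregnancy days 12 and 17 (P12, P17) and lactation days 1, 2 and 9 (L1, L2, L9); points are arrays, 4 per stage, lines join the group means, the dashed line is the filter line at 4.22, and each panel has its own vertical scale. The first 8 panels hold the genes that fell, with Aldh1a1 at 2.87 to 3.97 on every lactation array, and the last 4 the genes that rose.

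The day of the change differed among them. At lactation day 1, 6 of the 22 were already called against pregnancy day 17, 1 higher and 5 lower, beside 23.3% of all probe sets, 9.32% higher and 14% lower. Aldh1a1 read 3.58, 3.50, 3.51 and 2.87 at lactation day 1, all under the lowest array of pregnancy day 17. That fall was at least 2.12-fold. Aldh3a2 fell by 1.02, Sult1a1 by 0.96 and Gsta4 by 0.51, and Aldh18a1 rose by 0.89. The mean of all probe sets changed by −0.48 for Aldh3a2, −0.435 for Sult1a1 and 0.49 for Aldh18a1. With equal ribosomal medians Gsta4 changed by −0.18 and lost its call (limma adjusted p = 0.306). Gstm2 was called lower, by at least 1.01-fold, since its day 1 mean lay under the line, and the call was lost with a floor of 16 (adjusted p = 0.0694), with equal ribosomal medians (0.0851) and with only the groups compared (0.0686). With equal ribosomal medians the split was 10 higher and 3 lower, with a shift of 0.35. Day 2 against day 1 gave 3 calls, 1 higher and 2 lower, beside 14.3% of all, 6.1% higher and 8.18% lower: Aldh18a1 rose by a further 0.63, Gstz1 fell by 0.81, and Aldh9a1 fell by 0.87 after 8.44 ± 0.46 at day 1. That split was 6 higher and 2 lower with equal ribosomal medians, and without lactation day 1 replicate 4 the Aldh18a1 and Aldh9a1 calls were lost (adjusted p = 0.0676 and 0.0563). The Aldh18a1 call was lost as well without day 2 replicate 1 (0.0583) or 4 (0.0546), and the Aldh9a1 call without day 2 replicate 3 (0.0509) or day 1 replicate 3 (0.0567). The mean of all Aldh18a1 probe sets changed by 0.38 between these days.

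Within pregnancy, 13 of the 22 were called at day 17 against day 12, 6 higher and 7 lower, beside 45.1% of all probe sets, 18.4% higher and 26.7% lower. Aldh3a2 fell to 5.68 ± 0.13 at day 17, against 6.31 ± 0.13 at day 12, Gstz1 to 8.77 ± 0.12, against 9.54 ± 0.42, and Gsta4 to 5.88 ± 0.25, against 6.41 ± 0.17 (SD, n = 4). A second Aldh3a2 probe set was called 0.27 higher (adjusted p = 0.0119), and the mean of both changed by −0.18 (0.0528). Gstm5 rose by 0.75 on its brightest probe set, which fell again by lactation day 2, while other probe sets of the gene differed by 0.04 (adjusted p = 0.866) and 0.24 (0.0718). Gstm2 fell by 0.78 and Aldh2 by 0.33, but the mean of all Aldh2 probe sets differed by −0.19 (adjusted p = 0.134). Gstt1 and Aldh1a3 fell to means under the line, by at least 1.59-fold and 1.09-fold, and Gsto1 and Gstk1 rose by 0.32 and 0.46. Gsta3, Sult1d1 and Sult1c1 were called 0.52, 0.35 and 0.26 higher with group means under the line on both days, while untested probe sets under the line changed by a median of 0.16, with a 90th percentile of 0.27. Of the 808 tested probe sets under the line on both days, 32.8% were called higher. Leaving out 1 array at a time, 20 fits in all, lost the calls of Gstk1 in 14, Sult1d1 in 7, Gsto1 in 6, Aldh2 in 5 and Sult1c1 in 2. Other settings lost the calls of Gstk1 and Sult1d1 in 3 cases each, and of Gsto1, Aldh2 and Sult1c1 in 2 each. With a floor of 16 Gsta3 changed by 0.09 and lost its call (limma adjusted p = 0.46). The call of Gsta4 was lost after quantile normalization (0.0723), and those of Gstm2 (0.0577) and Aldh1a3 (0.0839) with only the groups compared. Without day 12 replicate 4 the count was 7, and with equal ribosomal medians it was 2 higher and 6 lower.

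The 4 arrays of pregnancy day 12 differed among themselves in a set of these genes. Aldh1a1 read 6.55, 4.36, 4.03 and 5.44 in replicates 1 to 4, Aldh1a7 3.76, 2.76, 2.45 and 3.73, Gstt1 5.35, 4.71, 4.38 and 5.11, and Gstt2 7.07, 6.06, 6.25 and 7.11. Replicates 1 and 4 were thus higher in all of them than 2 and 3. These genes were named for that pattern, which Gstz1, at 9.48, 10.15, 9.31 and 9.23, and Gstm2, at 5.32, 5.22, 4.72 and 4.81, did not show. Several marker means differed in the same way on these arrays: luminal epithelium 9.86, 9.46, 9.26 and 9.91, macrophage 7.20, 6.76, 6.93 and 7.37, fibroblast 10.21, 9.93, 9.99 and 10.14, and myoepithelium 7.22, 6.86, 6.96 and 7.16. The erythrocyte mean went the other way, at 8.98, 9.71, 9.84 and 9.17. So did the lymphocyte mean, at 3.75, 3.95, 3.82 and 3.75, and the hepatocyte mean, at 3.92, 4.02, 4.06 and 3.80. Adipocyte, at 8.90, 9.28, 8.75 and 8.75, and endothelium, at 6.42, 6.55, 6.42 and 6.62, followed neither order. Their part in these values was not tested.

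Later in lactation 18.2% of the tested enzymes were called, near the share of all probe sets. At day 9 against day 2, 4 of the 22 were called, 3 higher and 1 lower, beside 25% of all probe sets, 8.81% higher and 16.2% lower: Gstp1 rose by 0.36, Gsta3 by 0.40 and Sult1d1 by 0.39, and Gstk1 fell by 0.55. Leaving out any array of lactation day 2, or day 9 replicate 3 or 4, left 1 or 2 calls. Quantile normalization gave 4 higher and 0 lower, and equal ribosomal medians 0 higher and 3 lower. With equal ribosomal medians the changes kept their sign, at 0.25 for Gstp1, 0.29 for Gsta3, 0.28 for Sult1d1 and −0.65 for Gstk1, and the 3 rises lost their calls.

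The widest span, lactation day 9 against pregnancy day 12, called 15 of the 22, 6 higher and 9 lower, beside 77.6% of all probe sets, 35.2% higher and 42.4% lower. Of the 6, Gsta3, Sult1c1 and Sult1d1 reached the line at lactation day 9 and not at pregnancy day 12. Of all such probe sets, 96.2% were called higher. Gstz1 fell to 6.38, 7.48, 7.04 and 7.02 at lactation day 9, against 9.48, 10.15, 9.31 and 9.23 at pregnancy day 12, 5.90-fold lower. Aldh3a2 fell by 1.46, and Aldh1a1 and Gstm2 fell to means under the line, by at least 1.83-fold and 1.74-fold. Another probe set of Aldh3a2 rose by 0.62 between the same stages, near the line. Sult1a1, Aldh9a1, Gstm1, Gsta4 and Gstt1 fell by 0.49 to 0.80, the call of Gstt1 being lost without day 9 replicate 4 (adjusted p = 0.0504), day 12 replicate 1 (0.0891) or day 12 replicate 4 (0.0607). After quantile normalization the calls of Aldh9a1 (limma adjusted p = 0.209), Gsta4 (0.376) and Gstm1 (0.2) were lost. Equal ribosomal medians lost those of Aldh9a1 (0.101), Gsta4 (0.246) and Gstt1 (0.547). With the mean of its probe sets Sult1a1 differed by −0.12 (adjusted p = 0.271). Aldh18a1 rose by 1.04, Gstm3 by 0.74 and Gstp1 by 0.40. The mean of all probe sets changed by 0.75 for Aldh18a1 and by 0.48 for Gstm3. Quantile normalization gave 8 higher and 7 lower, and equal ribosomal medians 10 higher and 6 lower, with the median of all probe sets moved up by 0.21 and 0.45.

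A further 3 enzymes with levels around the line rose over the stages, and their rise stands beside that of low values in general. Sult1d1 averaged 3.79 and 4.13 at pregnancy days 12 and 17, then 4.37, 4.54 and 4.93 at lactation days 1, 2 and 9. Gsta3 averaged 3.41, 3.94, 3.73, 3.95 and 4.34, and Sult1c1 3.93, 4.19, 4.24, 4.44 and 4.61. Between pregnancy day 12 and lactation day 9, untested probe sets under the line changed by a median of 0.47, with a 90th percentile of 0.70, and 92.5% of them were above 0. The change of Sult1c1, 0.68, lay within that range, and those of Sult1d1, 1.14, and Gsta3, 0.93, lay above its 90th percentile. That range leaves out probe sets that rose over the line, so a place above it decides nothing. These 3 reached the line at lactation day 9 and not at pregnancy day 12. So did 1065 probe sets in all, of which 96.2% were called higher. Of the 14 untested enzymes, 13 were above 0, with a median of 0.57. Sult1d1 read 4.89, 4.55, 5.36 and 4.92 at lactation day 9, against 3.80, 3.93, 3.85 and 3.56 at pregnancy day 12, at least 1.64-fold higher.

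**Figure D3:**
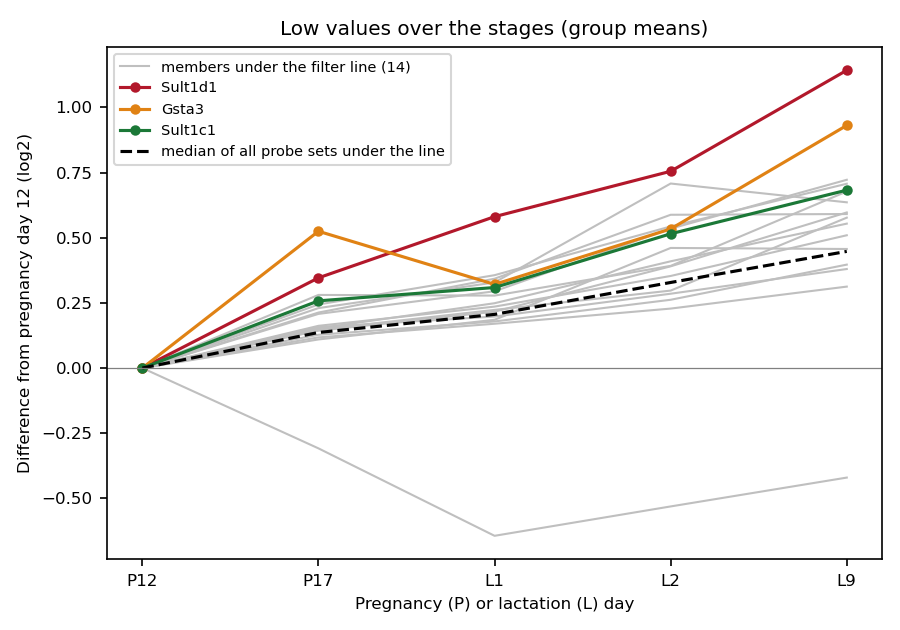
Difference of group means from pregnancy day 12 (log2) at pregnancy days 12 and 17 (P12, P17) and lactation days 1, 2 and 9 (L1, L2, L9) for Sult1d1, Gsta3 and Sult1c1 (coloured, 4 arrays per stage), for the 14 enzymes under the filter line (grey) and as the median of all 5236 probe sets under the line (dashed). The dashed line climbs at each stage, 13 grey lines end above 0, Aldh1a7 ends below it, and Sult1d1 and Gsta3 end above all grey lines. The grey and dashed lines leave out probe sets that rose over the filter line at any stage.

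Any change over the 5 stages, by the moderated F test, was called for 22 of 22 tested enzymes, beside 87.5% of all probe sets. Cell type markers moved over the same stages. At lactation day 9 against pregnancy day 12, 13 of 13 fibroblast and matrix markers, 9 of 10 adipocyte markers and 7 of 8 tested macrophage markers fell, while 4 of 11 luminal markers rose and 5 fell. The mean log2 level of the adipocyte list ran from 6.90 to 7.24 at lactation day 9 and from 8.75 to 9.28 at pregnancy day 12, with all 10 markers at or above the line in both. The fibroblast list ran from 6.19 to 7.66 at lactation day 9 and from 9.93 to 10.21 at pregnancy day 12. The part of these cells in the falls of Aldh1a1, Aldh3a2, Gstz1 and the other enzymes was not tested. Lactation day 9 replicate 1 had the lowest fibroblast mean of its group. Among the tested enzymes it had the lowest value for Aldh18a1, Aldh2, Aldh7a1, Aldh9a1, Gstk1, Gstp1 and Gstz1 and the highest for Gstm1, Gstm2, Gstm3, Gsto1, Gstt1, Sult1a1 and Sult1c1.

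Genes that serve these enzymes were mixed at lactation day 2 against pregnancy day 17, where 49.9% of all tested probe sets were called, 25.4% higher and 24.5% lower. In glutathione supply and peroxide removal, 5 of 14 rose and 3 fell: Gpx3 rose to 10.25 ± 0.37 at lactation day 2, against 8.89 ± 0.19 at pregnancy day 17, Gsr, glutathione reductase, rose by 0.80, Gpx4, which reduces lipid peroxides in membranes, fell by 1.07 and Mgst3 by 0.96. Mgst1 differed by −0.02 and Txnrd1 by 0.08. In donor supply, 1 of 6 rose and 2 fell, with Ugdh at 6.34 ± 0.28 at lactation day 2 and 7.69 ± 0.12 at pregnancy day 17 and Gusb, which splits glucuronides, down by 1.49 (SD, n = 4). Ephx1, the microsomal epoxide hydrolase, fell by 1.12, and no other of the 9 genes of its list was called. Akr1a1, an aldehyde reductase, fell by 0.60 and Maoa by 0.49, in a list where 2 of 10 rose and 2 fell.

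Among regulators, 1 of 11 rose and 3 fell. Ahr, the receptor that binds the xenobiotic element, fell by 0.90 to 4.43 ± 0.09 at lactation day 2, against 5.33 ± 0.50 at pregnancy day 17, and Arnt, its partner, rose by 0.93 (SD, n = 4). Nfe2l1 fell by 0.67 and Mafg by 0.39, and Nfe2l2 differed by −0.21 (adjusted p = 0.459). Of 4 exporters, 2 rose, both around the line, and Abcg2 differed by 0.42 (adjusted p = 0.0708).

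The comparison of 40% with 8% dietary fat asked whether the diet moved these enzymes in the gland at lactation day 10. None of the 21 tested enzymes was called by limma, beside 0.0926% of all 6481 tested probe sets. At an unadjusted p under 0.05 there were 5 of the 21, 2 higher and 3 lower, beside 8.3% of all probe sets. Those were Aldh9a1, Aldh7a1, Gsta3, Gstm1 and Gstp1. The smallest adjusted p was 0.215, for Gstm1, which read 7.49, 7.37 and 7.21 on 40% fat, against 8.03, 7.85 and 7.66 on 8% fat, a difference of −0.49 with a 95% interval between −0.76 and −0.23 before any adjustment.

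In all, 4 enzymes did not overlap between those diets, beside 13.1% of all probe sets. Besides Gstm1, Gstp1 read 10.51, 10.78 and 10.40 on 40% fat, against 10.89, 11.07 and 10.86 on 8% fat. Aldh9a1 read 7.37, 7.88 and 7.26 on 40% fat, against 7.0, 7.15 and 6.86 on 8% fat, and Aldh7a1 7.90, 7.83 and 7.93, against 7.74, 7.50 and 7.31. Their adjusted p-values were 0.4, 0.383 and 0.416. For Aldh1a1 the interval was wide, between −1.0 and 1.09, and its arrays read 5.12, 4.28 and 3.74 on 40% fat, against 4.02, 4.97 and 4.02 on 8% fat.

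The intermediate diet gave no called enzyme either. On 16% against 8% fat none of the 21 was called, beside 0% of all probe sets, with 0 at an unadjusted p under 0.05. On 40% against 16% fat none was called, beside 0.123%, with 3 at an unadjusted p under 0.05, and Gstp1 had the smallest adjusted p, 0.0796, at 10.51, 10.78 and 10.40 on 40% fat, against 11.30, 11.08 and 11.13 on 16% fat. The 3 diet comparisons share arrays and are not independent of each other. In none of the 6 lists of companion genes was a gene called between 40% and 8% fat.

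**Figure D4:**
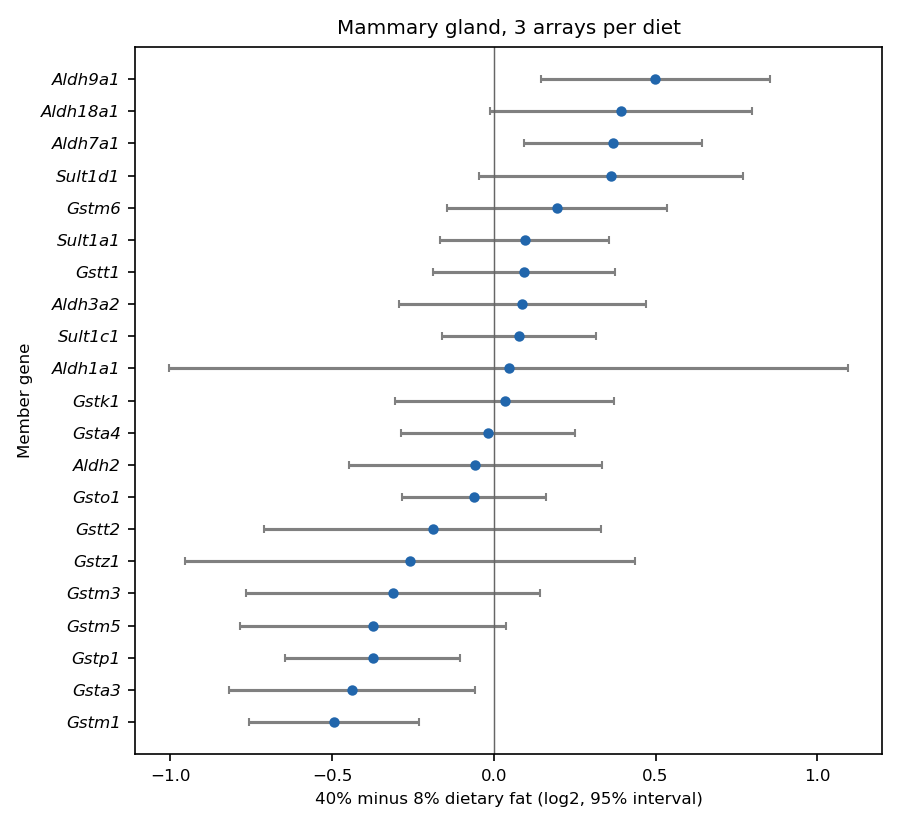
Difference between mammary gland on 40% and on 8% dietary fat for the 21 tested enzymes (log2, 40% minus 8%, 3 arrays per diet); points are the fitted differences and bars their 95% intervals from limma, not adjusted for the number of genes. The bars of Aldh9a1 and Aldh7a1 lie above 0, those of Gstp1, Gsta3 and Gstm1 below 0, and the others cross it.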

How the data were processed

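RNA of mammary gland and liver was labelled from about 5 µg per sample and hybridised to 1-colour oligonucleotide arrays, 32 in all. The authors deposited 1 intensity per probe set on a linear scale, made with GCRMA per the submitters' processing notes; its settings, and which arrays it was run on together, are not stated. Intensities under 1 (208 values) were set to 1 and log2 was taken. Of 12488 probe sets, 66 controls were left out. Names came from the platform annotation: 10833 probe sets had 1 gene symbol, 396 several and 1193 none, and 10817 of the named ones were found in RefSeq. The stage, diet and tissue comparisons were fitted apart with limma 3.58.1 in R 4.3.3 (lmFit, eBayes), without a block, on probe sets whose highest group mean reached 18.6 (4.22 on the log2 scale), the median of all values. P-values were adjusted by Benjamini-Hochberg over all probe sets tested, and called means an adjusted p under 0.05. A group mean under that line gives only a bound of the fold. The code was tested on simulated data. The enzymes and all gene lists were chosen with earlier results of these data known. All enzymes called in a comparison could be named; in the other gene lists, the up to 4 called genes with the largest change and up to 2 uncalled genes of highest mean, of which some are given, and Papss1, chosen after its values were seen. Samples with the same replicate number did not deviate together. Other filters, scalings, probe set rules, a floor of 16, sample sets and leaving out each array were tried.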

Additional observations from a re-analysis of the deposited data

Results flagged for a closer look

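In 7 of 110 groups of 4 arrays, 1 array lay apart from the other 3 by Dixon's gap test on the log2 values; chance gives about 1 in 20. Aldh1a1 read 2.87 in lactation day 1 replicate 4, and 3.50 to 3.58 in the others. Lactation day 2 replicate 2 stood apart for Gstz1, at 7.78 with the others at 7.36 to 7.42, for Gstm1, at 7.38 with the others at 7.20 to 7.22, and for Gstt2, at 6.25 with the others at 5.81 to 5.89. Gstm2 read 3.48 in lactation day 2 replicate 1, and 3.53 in the others. Sult1a1 read 5.08 in lactation day 9 replicate 2, and 5.39 to 5.43 in the others. Sult1c1 read 4.07 in pregnancy day 12 replicate 3, and 3.87 to 3.89 in the others.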

How the results depend on the processing

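The number of enzymes called moved by over 1.5 times under 4 alternatives. With no filter it was 23 (lactation day 2 against pregnancy day 17), 23 (pregnancy day 17 against 12), 5 (lactation day 2 against 1), 8 (lactation day 9 against 2), 28 (lactation day 9 against pregnancy day 12) and 34 (any stage), more genes being tested. With the 75th percentile as the filter it was 7 for pregnancy day 17 against 12 and 9 for lactation day 9 against pregnancy day 12, fewer genes being tested. With equal ribosomal medians it was 8 for pregnancy day 17 against 12, 13 for lactation day 1 against pregnancy day 17 and 8 for lactation day 2 against 1. With only the 2 groups compared it was 6 for pregnancy day 17 against 12 and 5 for lactation day 2 against 1. Leaving out each array gave 10 to 12 for lactation day 2 against pregnancy day 17, 7 to 13 for pregnancy day 17 against 12 (7 without day 12 replicate 4), 6 to 7 for lactation day 1 against pregnancy day 17, 1 to 4 for lactation day 2 against 1 (1 without day 1 replicate 4), 1 to 5 for lactation day 9 against 2 (1 without day 2 replicate 2 or day 9 replicate 3), 14 to 16 for lactation day 9 against pregnancy day 12, 20 to 22 for any stage, 0 to 0 for each diet comparison and 28 to 29 for liver. Signs turned for Gstm1 at lactation day 2 against pregnancy day 17 (0.024, equal ribosomal medians) and, in liver against gland, for Gstp1 (−0.0145, quantile), Gstm3 (0.411, equal ribosomal medians; 1.58, mean of probe sets), Gstm5 (0.0925) and Sult1c1 (0.60, both equal ribosomal medians); the cause was not tested. Of the named enzymes' other values, 1695 kept direction and call and 120 lost the call. In many of these fits, as without an array of a group not compared, the change itself could not move and only its adjusted p could. With the replicate number as a block, though the numbers did not pair the samples (mean correlation 0.0144, 6 of 20 arrays closest to their own number), the counts were 12 (lactation day 2 against pregnancy day 17), 15 (pregnancy day 17 against 12), 6 (lactation day 1 against pregnancy day 17), 4 (lactation day 2 against 1), 6 (lactation day 9 against 2), 16 (lactation day 9 against pregnancy day 12), 20 for any stage, 0 for the diets and 29 for liver. The number of arrays and levels near the filter line limit all of these.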

Other observations

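A probe set shared by 8 Ugt1a genes, which make glucuronosyltransferases for bilirubin and phenols, was kept out of the enzymes described because it names no single gene. It averaged 7.46 and 6.48 at pregnancy days 12 and 17, then 5.72, 4.68 and 3.77 at lactation days 1, 2 and 9. It fell by 1.79 at lactation day 2 against pregnancy day 17 (adjusted p = 1.45e-05), and by at least 9.42-fold at lactation day 9 against pregnancy day 12 (adjusted p = 2.48e-10). In liver it averaged 11.25, against 4.94 in mammary gland on 8% fat, 79.0-fold higher. Between 40% and 8% fat it differed by −0.34 (adjusted p = 0.919).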
